A study of Mus musculus with 56 samples.

Results

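The libraries described here are the 6 of 56 prefrontal cortex libraries with the highest value of Drd2, the gene of the dopamine D2 receptor, and they are set against the 28 with the lowest value. They were chosen by the Drd2 value alone, so the comparison of the 6 with the 28 is a description without a test. The study profiled mRNA of the prefrontal cortex of C57BL/6J mice of both sexes on postnatal day 25. The mice were heterozygous for the sodium channel gene Scn2a (HT) or wild type (WT). Their dams passed fluoxetine, lithium or vehicle to them in the milk between days 3 and 24, a period of 3 weeks, and control pups of both genotypes received vehicle by the same route. Fluoxetine is an inhibitor of serotonin uptake and lithium is a mood-stabilising salt. The labels name no dam or litter, and pups that shared a dam would make p-values of the drug comparisons too small. The 6 libraries were HT vehicle female 3, HT fluoxetine male 5, HT vehicle male 3, WT lithium male 5, HT lithium male 2 and WT fluoxetine male 1, where the number is the replicate number of the label.

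The striatum lies beneath the frontal cortex, separated from it by white matter, and most of its neurons are GABAergic projection neurons that receive dopamine. Those of the indirect pathway carry the D2 receptor, the adenosine receptor encoded by Adora2a, and enkephalin, and those of the direct pathway carry the D1 receptor, substance P and dynorphin. Both kinds share a signalling machinery built on the olfactory type G protein, adenylyl cyclase 5, the phosphodiesterases 10A and 1B and the phosphoprotein DARPP-32. Cortical neurons use several of the same genes at a lower level, whereas Six3 and Isl1, transcription factors of the developing ventral forebrain, have little or no known use in the mature cortex.

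The sequence before the start of transcription is shown for the 4 genes below because they lie among those with the largest ratios between the libraries and stand for the indirect pathway (Drd2, Six3 and Gpr6) and the direct pathway (Isl1). Each is the 250 bases before a RefSeq transcript start on GRCm38.p6, printed 5′ to 3′ on the strand of the gene: Drd2 on the plus strand at chr9:49340153-49340402, Six3 on the plus strand at chr17:85620584-85620833, Isl1 on the minus strand at chr13:116309689-116309938 and Gpr6 on the minus strand at chr10:41072291-41072540. Capitals mark the GC box GGGCGG and the core of the cAMP response element TGACG, each searched on both strands, which also marks CCGCCC and CGTCA.
Drd2: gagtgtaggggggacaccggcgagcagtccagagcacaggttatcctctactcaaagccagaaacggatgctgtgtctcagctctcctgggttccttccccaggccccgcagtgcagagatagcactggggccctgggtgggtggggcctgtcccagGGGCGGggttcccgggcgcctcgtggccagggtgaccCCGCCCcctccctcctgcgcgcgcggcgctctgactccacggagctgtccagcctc
Six3: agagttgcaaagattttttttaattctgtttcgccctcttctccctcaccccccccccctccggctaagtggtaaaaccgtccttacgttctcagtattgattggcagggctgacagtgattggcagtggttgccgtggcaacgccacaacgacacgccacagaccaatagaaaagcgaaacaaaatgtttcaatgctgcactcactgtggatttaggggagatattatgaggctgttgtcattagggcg
Isl1: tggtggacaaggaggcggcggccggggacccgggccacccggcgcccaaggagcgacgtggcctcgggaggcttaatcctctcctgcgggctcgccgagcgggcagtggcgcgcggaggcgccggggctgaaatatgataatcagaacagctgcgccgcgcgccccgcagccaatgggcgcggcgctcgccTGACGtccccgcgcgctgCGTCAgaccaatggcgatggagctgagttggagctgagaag
Gpr6: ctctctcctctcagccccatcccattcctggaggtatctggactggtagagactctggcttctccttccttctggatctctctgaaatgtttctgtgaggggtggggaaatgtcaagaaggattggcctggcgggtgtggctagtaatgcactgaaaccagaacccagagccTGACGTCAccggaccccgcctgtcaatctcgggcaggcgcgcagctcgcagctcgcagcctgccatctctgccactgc
The Drd2 window held 2 GC boxes and no cAMP response core. The Isl1 window held 2 cores, and in the Gpr6 window 2 cores on opposite strands overlapped to form the palindrome of the full element. Neither motif occurred in the Six3 window. Over all 32851 windows of that length in the table, 32.74% held a GC box and 17.77% a cAMP response core. Of the 51 windows of the 31 striatal genes that could be matched by symbol, 20 (39.22%) held a GC box and 9 (17.65%) a core.

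Each value below is a gene's read count divided by the library's size factor, as deposited. The Drd2 value was 733.5 in HT vehicle female 3, 621.7 in HT fluoxetine male 5, 542.5 in HT vehicle male 3, 394.1 in WT lithium male 5, 363.8 in HT lithium male 2 and 282.9 in WT fluoxetine male 1. These rest on 267 to 600 reads per library. In the 28 lowest libraries Drd2 ran from 20.4 to 43.0 with a median of 33.4, on 18 to 44 reads. The 2 sets were far apart, and values also differed widely within the 6. The choice of 6 did not fall at a gap: the library just outside, WT lithium male 4, had 262.4, and on the other side 43.5 was the first value above the 28. A wider gap lay further down, between 156.2 in HT fluoxetine female 4, the 11th library, and 89.0 in WT vehicle female 5, the 12th.

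**Figure D1:**
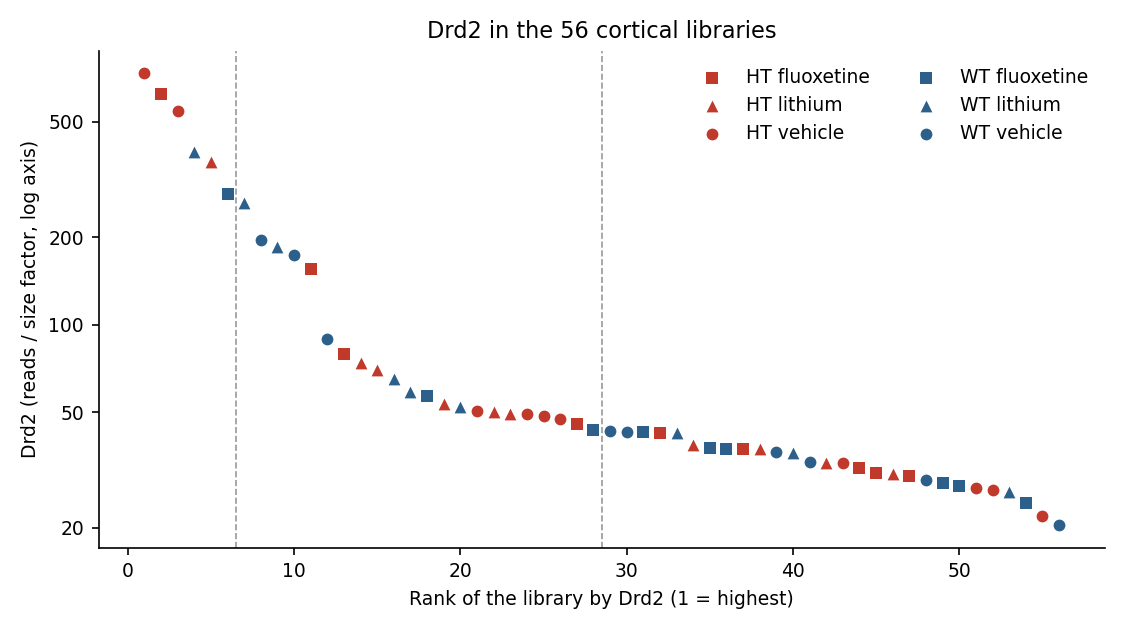
Drd2 in each of the 56 libraries against its rank, on a log axis in reads divided by the size factor, with colour for genotype and shape for treatment; dashed lines bound the 6 highest and the 28 lowest. The 6 highest lie between 282.9 and 733.5, 5 further libraries lie between 156.2 and 262.4, and the 28 lowest lie between 20.4 and 43.0.

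The depth of the 6 libraries, 24.3 to 30.6 M reads, lay within or just below that of the 28 (24.4 to 36.4 M). Scn2a followed the genotype labels in them. It was 7814 to 8754 in the 4 HT libraries, inside the range of the other HT libraries (7582 to 9619), and 11074 and 12907 in the WT ones, inside the range of the other WT libraries (9727 to 13381). Cortical genes were present in all of them: Slc17a7, the vesicular glutamate transporter of cortical excitatory neurons, was 51940 ± 2236 (SD, n = 6) in the 6 and 54100 ± 3445 (SD, n = 28) in the 28.

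The other genes given as marks of these libraries, Adora2a, Six3 and Isl1, were high in the same 6. Adora2a, the adenosine receptor that opposes the D2 receptor in indirect pathway neurons (ENSMUSG00000020178, chromosome 10, 75316877 to 75334784, plus strand), was 1410, 1157, 807.2, 699.3, 718.3 and 520.2 in the order of the Drd2 ranking. The 28 lowest libraries held 70.1 to 142.0, and the ratio of means was 8.77. Six3, a homeodomain factor of indirect pathway neurons (ENSMUSG00000038805, chromosome 17, 85613608 to 85629302, plus strand), was 227.4, 139.2, 131.2, 100.8, 98.8 and 73.1. All 6 values stood clear of the 28, which reached 12.1 and were at 0 in 5 libraries, for a ratio of means of 32.5. Isl1, a LIM-homeodomain factor of direct pathway and cholinergic neurons (ENSMUSG00000042258, chromosome 13, 116298281 to 116309689, minus strand), was 77.0, 40.8, 58.0, 33.6, 32.2 and 36.0. In 19 of the 28 it had no read and in the rest it reached 6.04, so its ratio of means, 47.2, rests on few reads in the denominator. For comparison Drd2 itself (ENSMUSG00000032259, chromosome 9, 49340627 to 49408177, plus strand) had a ratio of 14.7. Ranking all 56 libraries by Adora2a, Six3, Isl1, Gpr6, Penk, Ppp1r1b, Rgs9, Pde10a or the summed striatal genes without Drd2 picked out the same 6. Ranking by Drd1, Tac1 or Slc5a7 put WT lithium male 4 in the place of 1 of them, and ranking by Chat put HT lithium male 3 there.

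Of the 17778 genes that passed the filter on low values, 84 had all 6 libraries above all 28 (0.472%), and none had all 6 below all 28 (0.0%). Because the libraries were picked on Drd2, these shares describe the choice and are not evidence for it. Among the 84, 24 belonged to the lists of striatal projection neuron genes, 17 to other lists and 43 to none. The striatal lists held 41 genes, of which 40 were in the table and passed the filter, and Gpr52 was not analysed here. Of those 40, 38 had a higher mean in the 6, with a median log2 ratio of 0.83 against -0.0034 over all genes. In bulk tissue, more cells of a type and more RNA per cell cannot be told apart.

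Of the 7 genes of the indirect pathway, 5 had all 6 libraries above the 28. Besides Drd2, Adora2a and Six3 they were Gpr6 and Penk. Gpr6, an orphan receptor of indirect pathway neurons, was 380.2, 263.8, 258.1, 209.4, 193.4 and 132.4 against 19.3 to 66.6. Penk, the enkephalin precursor, was 5182, 4406, 3704, 3596, 3111 and 2981 against 896.2 to 1809, a ratio of 3.23. Both followed the Drd2 order without exception in these 6. The 2 others overlapped. Sp9, a transcription factor also used in olfactory bulb interneurons, had a ratio of 1.06 with 99.9 to 721.4 in the 28, and Grik3, a kainate receptor subunit, had 1.05.

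Direct pathway genes were split. Only 3 of 10 had all 6 above the 28: Isl1, Drd1 and Tac1. Drd1, the D1 receptor, was 907.1, 952.4, 785.3, 825.8, 687.1 and 473.6 against 142.9 to 324.4, a ratio of 3.31. Tac1, the precursor of substance P, was 1064, 855.1, 827.9, 751.7, 691.3 and 652.6 against 277.5 to 432.8, a ratio of 2.29. Slc35d3, a nucleotide sugar transporter family member of direct pathway neurons, had a ratio of means of 3.49 yet overlapped, since it reached 122.5 in the 28 and was 106.7 in WT lithium male 5. Pdyn, the dynorphin precursor, overlapped as well, at 868.3 ± 49.7 (SD, n = 6) against 744.9 ± 86.6 (SD, n = 28), as did Chrm4, Zfp521, Ebf1, Sfxn1 and Eya1, with ratios of 0.931 to 1.195. The median log2 ratio was 0.25 over the 10 direct pathway genes and 2.35 over the 7 indirect ones, a contrast that Drd2, itself on the indirect list, helped to choose.

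Genes shared by both pathways separated in 16 of 23 cases. Ppp1r1b, which encodes DARPP-32, the phosphoprotein that integrates dopamine signals, was 6715, 5646, 4661, 5174, 4370 and 3613 against 1497 to 2424 in the 28, a ratio of 2.64. Rgs9, which speeds the shut-off of G proteins downstream of dopamine receptors, was 2042, 2128, 1540, 1458, 1443 and 1040 against 295.3 to 509.2, a ratio of 4.23. In both, even WT fluoxetine male 1, the lowest of the 6, stood above every one of the 28. Pde10a, the cyclic nucleotide phosphodiesterase 10A, was 6224, 6588, 5483, 4550, 4983 and 3521 against 1432 to 2598. Sh3rf2, a ring finger protein, had the highest ratio of the shared genes, 14.6, with 46.6 to 183.2 in the 6 and 0 to 12.3 in the 28. Ratios of 5.38 for Syndig1l, 2.47 for Rarb, 2.44 for Scn4b, 2.37 for Rxrg and 2.30 for Zfp503 followed. Scn4b is the sodium channel beta 4 subunit, and Rarb and Rxrg are retinoid receptors. The other 6 that separated had smaller ratios, from 1.26 for Gnal, the olfactory type G protein alpha subunit, to 1.81 for Rasd2, with Gng7, Pde1b, Rasgrp2 and Adcy5 between them. The 7 that overlapped, Actn2, Bcl11b, Ptpn5, Arpp21, Gpr155, Foxp1 and Meis2, had ratios of 0.98 to 1.30.

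**Figure D2:**
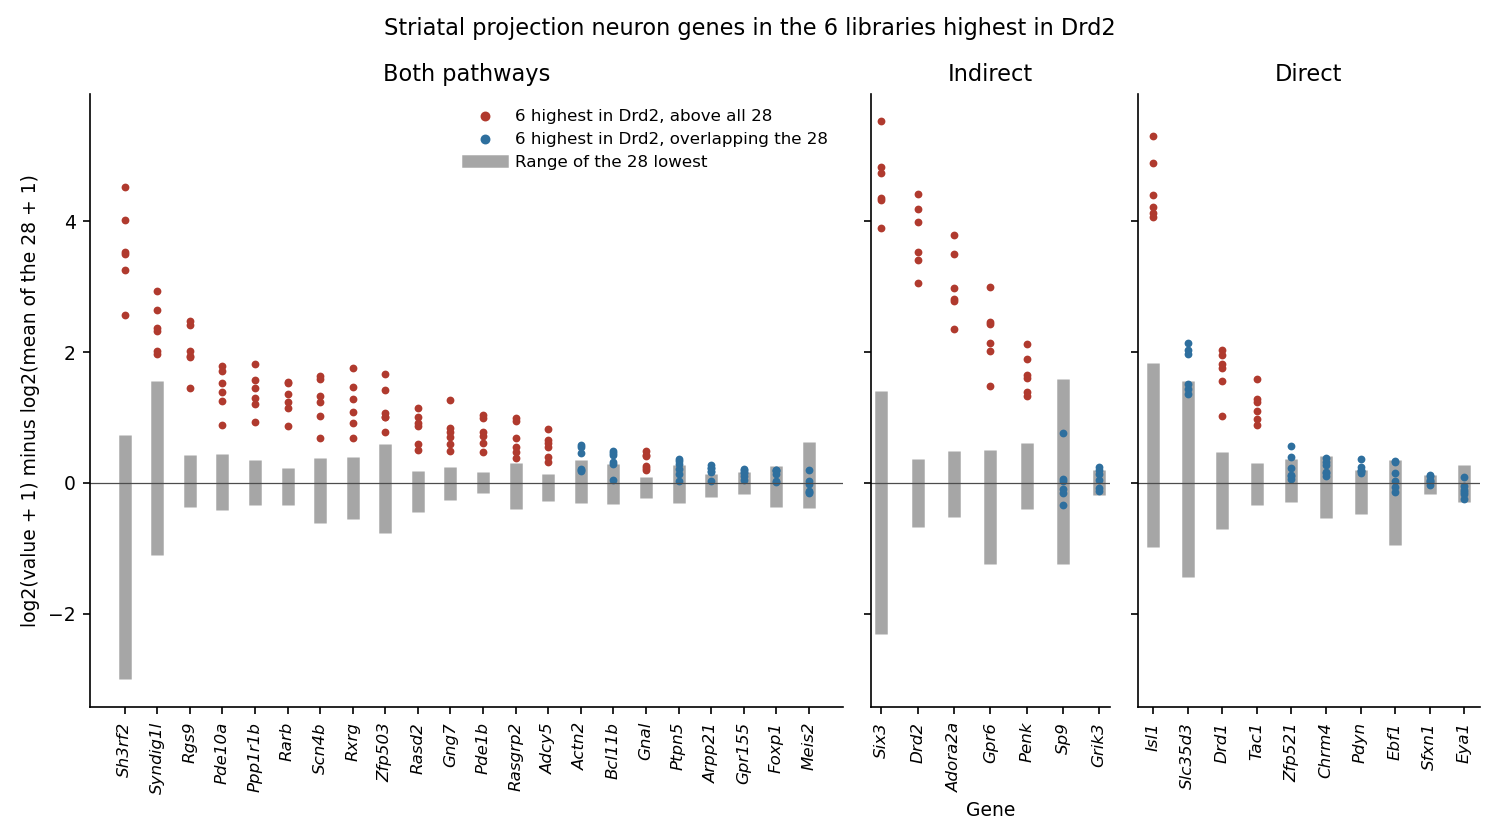
For the striatal projection neuron genes, the log2(value + 1) of the 6 libraries highest in Drd2 (points) and the range of the 28 lowest (grey bars), both relative to the mean of the 28. Red points mark genes whose 6 values all lie above the 28 and blue points the 16 that overlap, 7 of them among the 10 direct pathway genes.

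Of the 36 dopamine and cAMP signalling genes in the table, 12 had all 6 above the 28, and all 12 were striatal list genes. The widely expressed members stayed near a ratio of 1, for example 0.99 for Gnas, the stimulatory G protein alpha subunit, and 1.01 for Gnao1, the inhibitory type Go. The median log2 ratio of that list was 0.07. Of 14 transcription factors of the lateral ganglionic eminence, the embryonic source of striatal projection neurons, 5 separated: Six3, Isl1, Rarb, Zfp503 and Foxp2. Foxp2, a forkhead factor that deep layer cortical neurons also use, had a ratio of 1.68, and Dlx1 and Dlx2, shared with interneurons, overlapped with ratios of 0.87 and 1.09.

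Within the striatum, striosomes and matrix are intermingled compartments with different markers. Of 6 striosome markers, 2 separated, Tac1 and Sema5b (ratio 1.41), while Kremen1 had a ratio of 0.997 and Lypd1 of 1.15. None of 4 matrix markers did, and 3 of the 4 had a lower mean in the 6, with 0.88 for Calb1, 0.91 for Epha4 and 0.93 for Gda, genes that the cortex also expresses. Of 3 genes of the ventral striatum and olfactory tubercle, Nts, the neurotensin precursor, had a ratio of 4.78 and Cartpt, the CART peptide precursor, one of 1.96, and both separated, while Tshz1 overlapped. Of 11 neuropeptide precursors, 4 separated, namely Penk, Tac1, Nts and Cartpt, and Sst, Npy, Vip and Cck, all cortical interneuron peptides at least in part, had ratios of 0.864 to 1.045.

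Cholinergic genes came with the projection neuron genes. Slc5a7, the choline transporter, was 157.7, 110.9, 126.9, 146.2, 105.0 and 89.0 against 22.4 to 60.01 in the 28. Chat, which makes acetylcholine, was 72.1, 63.9, 49.2, 36.6, 42.6 and 26.5 against 3.04 to 25.5. All 6 values of each lay above the 28, while Slc18a3, the vesicular acetylcholine transporter, had a ratio of 2.06 and overlapped. Lhx8 was not analysed here. Cholinergic neurons are also found in the septum and basal forebrain. The source of the cholinergic transcripts was not tested, and no separate list of basal forebrain genes was examined. Of 4 septal genes none separated (ratios 0.93 for Trpc4 to 1.09 for Zic1). None of the 12 genes of GABAergic neurons and interneurons separated either. Gad1, an enzyme of GABA synthesis, had a ratio of 1.02 and Gad2, the other such enzyme, of 1.196, and of 4 dopamine neuron genes none separated.

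Myelin genes were also higher. Of 12 genes of myelinating oligodendrocytes, 10 had all 6 above the 28, and all 12 had a higher mean, with log2 ratios of 0.52 to 0.71 and a median of 0.63. Mobp, a myelin protein of the central nervous system, was 29140, 22760, 23650, 24090, 23420 and 25910 in the Drd2 order against 11410 to 21660. Cnp, a phosphodiesterase of myelin, was 14350, 10760, 11490, 10220, 10420 and 12200 against 6234 to 10020. The order of the libraries differed from that of Drd2: WT fluoxetine male 1, the lowest of the 6 in Drd2, was the next highest after HT vehicle female 3 in both myelin genes. Mbp and Opalin overlapped. The part of white matter in the striatal result was not tested.

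Cells of other kinds did not separate. None of 17 cortical excitatory genes had all 6 above or below the 28, and 14 of them had a lower mean in the 6, with 0.84 for Mef2c and 0.88 for Rasgrf2. Their summed value was 0.876 to 0.960 of the median of the 28, within the 28's own range of 0.793 to 1.07. None of 8 claustrum and layer 6b genes separated, although 7 had a higher mean, led by Nr4a2 at 1.66 and Ccn2 at 1.42. None of 3 thalamic genes separated either, although all 3 had a higher mean. The median log2 ratio was 0.36 for the claustrum and layer 6b list and 0.35 for the thalamic list. None of 8 astrocyte genes, 8 microglial genes and 6 endothelial genes separated, and the median log2 ratios of those lists were 0.0045, -0.05 and -0.01.

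Olfactory bulb and choroid plexus genes marked individual libraries. None of 16 olfactory bulb genes separated and 13 had a lower mean, but their summed value relative to the median of the 28 was 2.21 in WT fluoxetine male 1 and 1.45 in HT fluoxetine male 5, and 0.881 to 1.01 in the other 4. Doc2g, a gene of olfactory bulb projection neurons, was 1326 in WT fluoxetine male 1 and 165.1 to 647.9 in the rest of the 6. In WT fluoxetine male 1, Ttr, the transthyretin that choroid plexus secretes, was 2113, against 17.8 to 91.7 in the other 5 and 13.0 to 893.9 in the 28. Of 5 genes of ependyma and choroid plexus, Clic6, an intracellular chloride channel protein, had all 6 above the 28, at 156.5, 115.1, 82.0, 74.1, 76.9 and 104.9 against 4.01 to 26.4, and it was high whether or not Ttr was. The same olfactory bulb sum reached 3.88 in the 28.

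**Figure D3:**
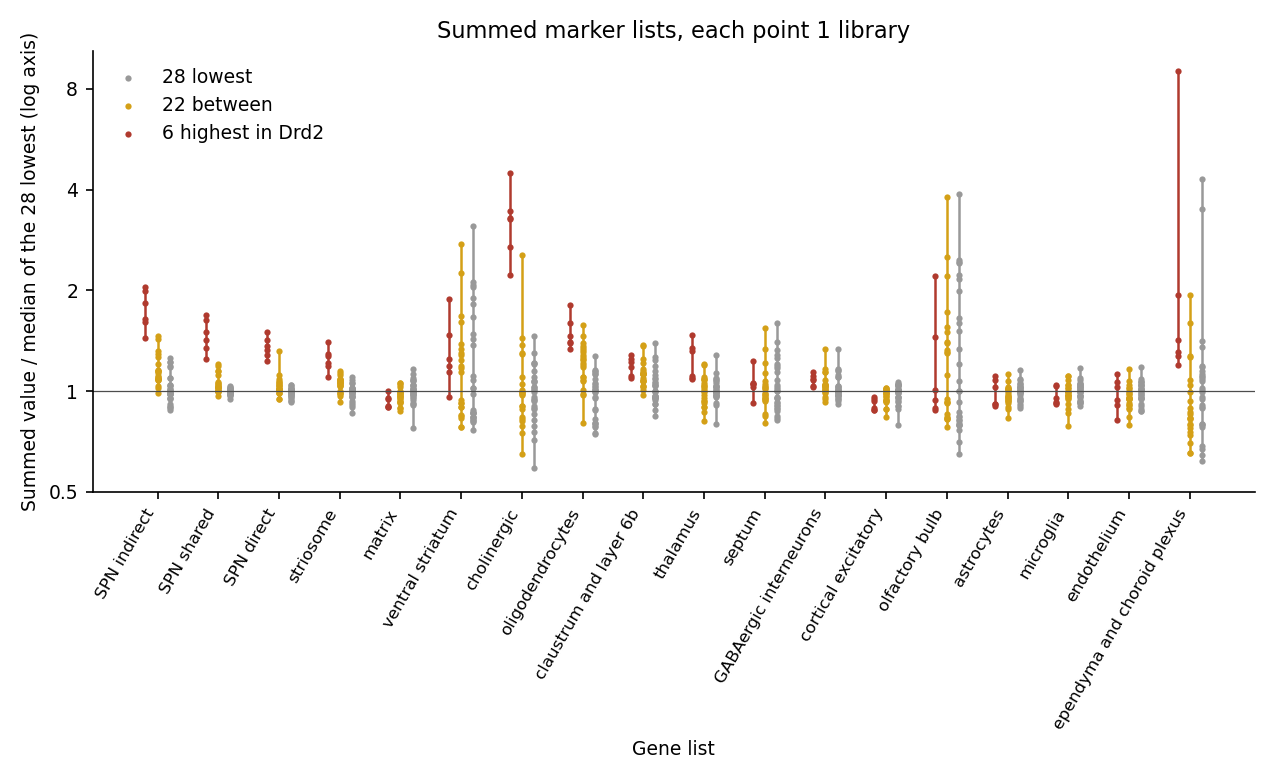
Summed value of the genes of each list in each library, divided by the median of the 28 lowest in Drd2 (log axis), for the 6 highest, the 22 between and the 28 lowest, with lines from the lowest to the highest library. The 6 lie above all 28 in the projection neuron and cholinergic lists and in oligodendrocytes, and within the range of the 28 in cortical excitatory, astrocyte and microglial lists.

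Outside the fixed lists, among genes with a mean of at least 20 over the 56 libraries, the highest ratios were those of Serpina9 (9.54), a serine protease inhibitor, Cd4 (6.82), Dlk1 (6.10), an imprinted Notch ligand homologue, Ptprv (5.12), Ccdc187 (4.87) and Lrrc10b (4.08). Cd4 was 159.7 ± 56.5 (SD, n = 6) against 23.4 ± 6.89 (SD, n = 28), and is best known as the coreceptor of helper T cells. Six3os1, an RNA on the opposite strand of the Six3 locus, had a ratio of 21.1. It was singled out after its values were seen, and since the sources used here do not say whether strand was used in counting, its reads and those of Six3 cannot be told apart with certainty. Oprk1, the kappa opioid receptor to which dynorphin binds, was also singled out afterwards, with a ratio of 2.03.

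The 10 genes whose log2 values followed Drd2 most closely over the 56 libraries were Adora2a (Pearson r = 0.960), Rgs9 (0.953), Pde1b (0.933), Serpina9 (0.921), Ppp1r1b (0.919), Rarb (0.913), Sh3rf2 (0.911), Drd1 (0.911), Pde10a (0.905) and Rasd2 (0.899). All but Serpina9 were on the striatal lists. Over the 22 libraries between alone, r for these 10 ran from 0.822 for Rasd2 to 0.955 for Adora2a. These correlations are descriptions over libraries that share a size factor scale. The median r of the 40 striatal genes with Drd2 was 0.843 over all 56. It was 0.666 over the 22 between and 0.191 within the 28 lowest. For oligodendrocyte genes the same medians were 0.759, 0.609 and 0.444. Within the 28, Drd2 spanned only 20.4 to 43.0 on 18 to 44 reads. A narrow range and few reads can lower r by themselves, so the medians are not compared between the sets.

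Among the 6, how closely the striatal genes kept their proportion to Drd2 differed by gene. The excess of a gene over its median in the 28, divided by the excess of Drd2, varied least for Adora2a, from 1.39 in HT vehicle male 3 to 1.87 in HT vehicle female 3 and HT lithium male 2 (coefficient of variation 10.6%). The coefficient was 11.3% for Six3, 11.6% for Tac1, 13.6% for Rgs9 and 14.5% for Penk. It was larger for Drd1 at 22.1%, with 0.953 in WT fluoxetine male 1 and 1.64 in WT lithium male 5, and largest of the 12 genes so compared for Slc5a7 at 29.3%. Isl1 was at 23.9% and Chat at 18.0%. The highest proportion among the 6 was 1.35 times the lowest for Adora2a and 2.08 times the lowest for Isl1.

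Libraries just below the 6 were also high in part of these genes. With the 11 highest in place of the 6, 30 of the 84 genes still lay above all of the 28. Of the 24 striatal ones 14 did: Drd2, Adora2a, Six3, Gpr6, Drd1, Tac1, Isl1, Ppp1r1b, Rgs9, Pde10a, Pde1b, Rarb, Rasd2 and Sh3rf2. In WT lithium male 4, the 7th library, Drd1 was 623.4 and Tac1 762.3, above WT fluoxetine male 1 in both, and its olfactory bulb sum was 1.73. Of the 22 libraries between, 11 exceeded the highest of the 28 in Six3, 9 in Isl1, 7 in Adora2a and 4 in Penk. For the cholinergic genes Chat and Slc5a7 only 1 library did in each.

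The 6 libraries were spread over genotype and drug. There were 4 among the 29 HT libraries and 2 among the 27 WT ones. Vehicle (19 libraries), fluoxetine (18) and lithium (19) held 2 each. By sex the spread was less even, with 5 among 29 male libraries and 1 among 27 female ones. No group of genotype, drug and sex held more than 1: they fell in HT vehicle females, HT vehicle males, HT fluoxetine males, WT fluoxetine males, HT lithium males and WT lithium males, and 6 of the 12 groups, including both WT vehicle groups, held none. The 11 highest included 5 HT and 6 WT libraries, 4 from vehicle, 3 from fluoxetine and 4 from lithium, and 6 males and 5 females.

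Group medians of Drd2 stayed low where a single library was high. In HT vehicle females Drd2 had a median of 48.4 (range 33.3 to 733.5), in HT vehicle males 27.3 (22.03 to 542.5) and in HT fluoxetine males 45.5 (30.1 to 621.7). In WT vehicle females, with none of the 6, the median was the highest of all 12 groups, 89.0 (29.1 to 196.4). The group means followed the single libraries: HT vehicle females had 182.7 ± 308.0 (SD, n = 5) with the high library and 44.9 ± 7.87 (SD, n = 4) without it. WT vehicle males (20.4 to 43.0) and WT fluoxetine females (24.3 to 42.6) lay wholly among the 28 lowest. Within males alone, 5 of the 6 were set against 15 of the 28. There, 130 of 17778 genes had all high libraries above all low ones, and 25 of them were striatal. Fewer libraries on either side can only add genes to such a count, so it is not read against that of the full sets.

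**Figure D4:**
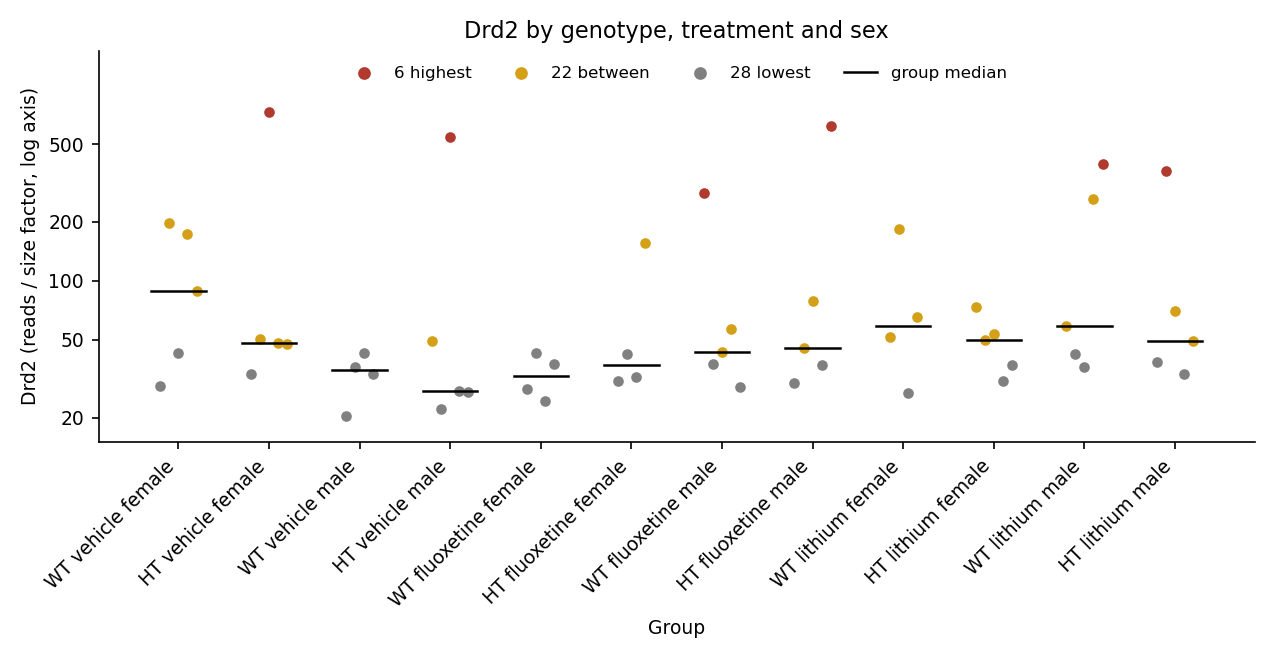
Drd2 in each library by group of treatment, sex and genotype (log axis, reads divided by the size factor), coloured by whether the library is among the 6 highest, the 22 between or the 28 lowest, with a line at the group median. No group holds more than 1 of the 6 highest, and WT vehicle males and WT fluoxetine females hold only libraries of the 28.

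The study's design asks how each drug and the loss of 1 Scn2a copy alter the cortex, and the striatal genes were read in those comparisons with and without the 6 libraries. With all 56 libraries, limma called none of the 40 striatal genes in any of 7 comparisons at a Benjamini-Hochberg adjusted p below 0.05, averaged over the sexes. Over all genes it called 26 for fluoxetine in WT (0.146%), 8 for fluoxetine in HT (0.045%), 1016 for lithium in WT (5.71%) and 1560 for lithium in HT (8.77%). For HT against WT it called 1 under vehicle (0.00562%), 2 under fluoxetine (0.0112%) and 6 under lithium (0.0337%), Scn2a among them each time. At an unadjusted p below 0.05, limma gave 3 of the 40 striatal genes each for lithium in WT, lithium in HT and genotype under lithium. It gave 0 for the other 4 comparisons. The share of all genes at that threshold was not counted, so these counts are not read as a result about the striatal genes. For lithium, 5.71% and 8.77% of all genes passed even the adjusted threshold. The smallest adjusted p was 0.14, for Chrm4 with lithium in WT (log2 change 0.22 ± 0.089 SE), and edgeR and DESeq2 on the recovered reads also called none. DESeq2 gave Drd2 no adjusted p for genotype under vehicle and genotype under lithium, so Drd2 was not assessed there. The difference of the drug effects between HT and WT was not called for any striatal gene (smallest adjusted p = 0.358 for lithium and 0.955 for fluoxetine, limma).

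The errors of the marker genes were wide in these comparisons. With 56 libraries the log2 difference of Drd2 was 0.32 ± 0.61 (SE) for genotype under vehicle, 0.62 ± 0.63 for lithium in WT and -0.18 ± 0.60 for lithium in HT. On the recovered reads edgeR gave 1.37, 0.94 and -1.07 for the same 3, and none passed its test (adjusted p = 0.56, 0.51 and 0.35). With limma, leaving out the 6 turned genotype under vehicle to -0.49 ± 0.37 and lithium in HT to 0.34 ± 0.37, and neither passed the test (adjusted p = 0.73 and 0.64). Without the 11 highest, Drd2 was at -0.11 ± 0.24 for genotype under vehicle. Adora2a went from 0.09 ± 0.51 to -0.60 ± 0.26 for genotype under vehicle (adjusted p = 0.98 and 0.48). Over the 24 striatal genes that separated and the 7 comparisons, the median SE was 0.236 with 56 libraries and 0.134 with 50, and the sign of 53 of 168 differences changed. Over the 16 others it was 0.0792 and 0.0687, and 18 of 112 signs changed. The 6 and the 11 were left out by their Drd2 values. Removing the highest values of a gene narrows its spread and lowers the mean of their groups by construction. For Drd2 and genes that follow it, the differences, signs and p-values without these libraries depend on that choice and are not read as tests.

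The majority sign of the striatal genes changed in 3 of the 7 comparisons when the 6 were left out. For genotype under vehicle, 35 of 40 striatal genes had a positive difference with 56 libraries, with a median log2 difference of 0.08 against 0.0029 over all genes. Without the 6 it was 9 of 40, with a median of -0.08 against 0.0025, and without the 11 highest it was 18 of 39, with a median of -0.0091. Both HT vehicle groups held 1 of the 6 and the WT vehicle groups held none, while WT vehicle females held the 8th and the 10th library. For lithium in HT, 16 of 40 were positive with 56 libraries (median -0.05) and 26 without the 6 (median 0.09), and for fluoxetine in HT 13 and 25 were. Without the 6, the majority sign did not change for fluoxetine in WT (15 and 8 positive), lithium in WT (35 and 30), genotype under fluoxetine (31 and 27) and genotype under lithium (11 and 10). Without the 11 highest it did change for genotype under lithium, with 20 of 39 positive (median 0.0059). In that setting 21 of 39 were positive for genotype under fluoxetine, 19 for fluoxetine in WT and 27 for lithium in WT. On the recovered reads of all 56 libraries, edgeR gave a median of 0.20 for genotype under vehicle and of -0.13, with 9 of 40 positive, for lithium in HT. The comparisons share control libraries, so their values are not independent of each other. The 12 oligodendrocyte genes, of which none was called in any comparison, were all positive for genotype under vehicle with 56 libraries and 1 was without the 6.

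Without the 6, limma called 1 of 40 striatal genes, Gpr155 for lithium in HT, a comparison in which it called 6.86% of all genes. That share was thus no larger among the striatal genes. Gpr155 encodes a lysosomal membrane protein, and it was not among the genes that separated the 6 from the 28. Without the 6 it was 1309 to 1548 (median 1473) in the 9 HT lithium libraries and 1218 to 1357 (median 1310) in the 8 HT vehicle libraries. All 9 lithium libraries lay above the vehicle mean of their sex, though the ranges overlapped, and the log2 change was 0.14 ± 0.040 SE (limma adjusted p = 0.024). With all 56 the log2 change was 0.09 ± 0.044 (limma adjusted p = 0.18), and 9 of 10 lithium libraries lay above the vehicle mean of their sex. The vehicle libraries left out, HT vehicle female 3 at 1544 and HT vehicle male 3 at 1516, were above the rest of the vehicle libraries. Leaving them out by Drd2 lowered the vehicle mean, so the Gpr155 call without the 6 is not independent of that choice.

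Over all genes, leaving out the 6 gave 73 calls for fluoxetine in WT (0.412%), 2 for fluoxetine in HT (0.0113%), 756 for lithium in WT (4.26%) and 1216 for lithium in HT (6.86%). For genotype it gave 1 under vehicle (0.00564%), 1 under fluoxetine (0.00564%) and 8 under lithium (0.0451%). Of the 1016 genes called for lithium in WT, 709 were also called without the 6 (69.8%), as were 1065 of the 1560 for lithium in HT (68.3%). For fluoxetine in WT, 25 of the 26 were called both times, and for fluoxetine in HT 2 of the 8 were. Only WT fluoxetine male 1 of the 6 was in the groups compared for fluoxetine in WT. Leaving out that library alone gave nearly as many calls as leaving out the 6. It was also high in olfactory bulb and choroid plexus genes, and the cause of the change in calls was not tested. Scn2a barely moved: its difference under vehicle was -0.53 ± 0.037 with 56 libraries and -0.52 ± 0.039 without the 6 (limma adjusted p = 4.6e-15 and 7.5e-13).

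**Figure D5:**
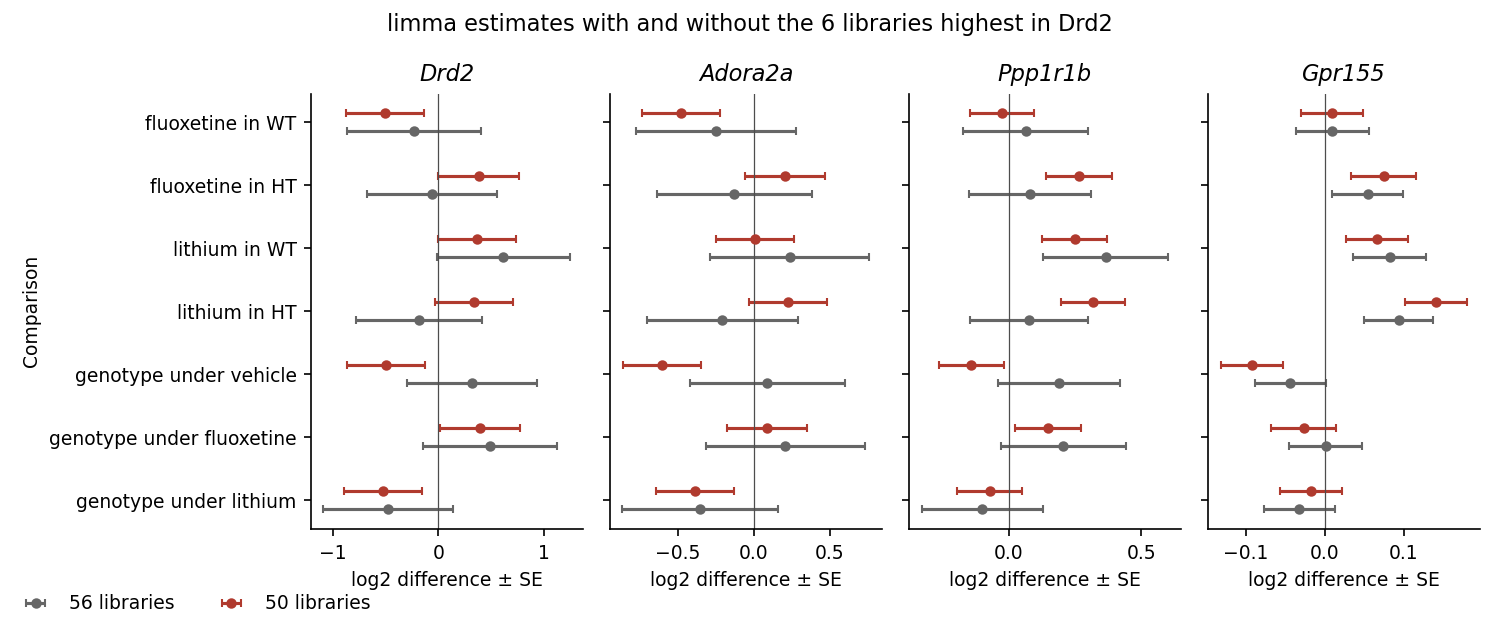
limma log2 differences ± SE of Drd2, Adora2a, Ppp1r1b and Gpr155 in the 7 comparisons, with all 56 libraries (grey) and with the 50 that remain without the 6 highest in Drd2 (red). Drd2 for genotype under vehicle lies at 0.32 with 56 libraries and at -0.49 with 50, with shorter error bars in the latter.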

How the data were processed

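RNA-seq libraries of 56 mice were placed in 12 groups by the genotype, treatment and sex of their titles. The library kit was TruSeq Stranded mRNA (per the labels' protocols). The genome build GRCm38 and the tools DESeq2 1.19.11, R 3.6.0 and Salmon 0.11.2 are named per the submitters' processing notes, without roles. The deposited values are a signal, the read count the authors divided by a size factor per library (0.818 to 1.23). Whole reads were recovered for 100% of values at a tolerance of 0.01 reads, and in 3 libraries the size factor was too near 1 for that test to bear. Recovered depth was 24.3 to 36.4 M reads (median 27.9 M). All 56 columns were mapped and no libraries were identical (r of log2 values 0.977 to 0.990).

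Libraries were ranked by Drd2. Members and gene lists were chosen with earlier results of these data known. Genes at 10 or more in at least 4 libraries were kept (17778 of 18088, 310 left out). For the 6 and the 28, means, ratios and overlap of ranges are given without a test. In R 4.3.3, limma 3.58.1 (trend, robust) was fitted to log2(value + 1) with 12 group means over all 56 libraries, and differences were averaged over the sexes, with Benjamini-Hochberg adjustment over all genes and a threshold of 0.05. It was checked on simulated data. Fold changes on that scale understate those of low genes. On the recovered reads, edgeR 4.0.16 called 29, 9, 818 and 1579 genes for fluoxetine in WT, fluoxetine in HT, lithium in WT and lithium in HT, and DESeq2 1.42.0 was also run. Other alternatives were TMM rescaling, voom, no filter, pseudocounts of 0.5 and 5, only the groups compared, a replicate block, and leaving out each library or the 6. Leaving out the 11 highest, using them in place of the 6, and males alone were added later. Named genes were the striatal lists, the 15 highest ratios among non-overlapping genes with a mean of at least 20 (the 10 lowest did not exist), the 10 most like Drd2, up to 5 of every other list by mean value, Scn2a and called striatal genes. A few genes that this rule names are not reported here, while counts include them. Gene names and coordinates are from GENCODE vM21 on GRCm38, and sequences from RefSeq on GRCm38.p6.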

Additional observations from a re-analysis of the deposited data

Results flagged for a closer look

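Within the 12 groups, the highest or lowest library was compared with the others by Dixon's ratio for Drd2, Adora2a, Six3, Isl1 and Scn2a, over 60 combinations of group and measure, of which chance would mark about 1 in 20. It marked 24, none of them for Scn2a, and 19 of these were among the 6 libraries described. Since those libraries were chosen as the highest in Drd2, which the other 3 striatal genes follow, that number was set by the choice and is not to be read against the chance rate. Values are reads divided by the size factor.

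For Drd2 the marked values were 733.5 in HT vehicle female 3 (others of its group 33.3 to 50.6), 621.7 in HT fluoxetine male 5, 542.5 in HT vehicle male 3, 363.8 in HT lithium male 2, 282.9 in WT fluoxetine male 1 and 156.2 in HT fluoxetine female 4. The others of those groups stayed at or below 79.2. WT lithium male 5 was not marked, because WT lithium male 4 lay close to it.

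For Adora2a they were 1410 in HT vehicle female 3, 1157 in HT fluoxetine male 5, 807.2 in HT vehicle male 3, 718.3 in HT lithium male 2, 520.2 in WT fluoxetine male 1 and 316 in WT lithium female 2, where the other 3 libraries lay between 106.6 and 128.9.

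For Six3 they were 227.4 in HT vehicle female 3, 139.2 in HT fluoxetine male 5, 131.2 in HT vehicle male 3, 98.76 in HT lithium male 2, 73.1 in WT fluoxetine male 1, 39.63 in WT lithium female 2 and 33.22 in HT fluoxetine female 4.

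For Isl1 they were 77.02 in HT vehicle female 3, 57.97 in HT vehicle male 3, 40.82 in HT fluoxetine male 5 and 36.02 in WT fluoxetine male 1. The fifth, 0.9624 in WT fluoxetine female 1, stands for a single read in a group otherwise at 0.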

How the results depend on the processing

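Ranking by Adora2a instead of Drd2 left 2 genes with all 6 below the 28. Males alone gave 130 genes above and 6 below, and the 11 highest gave 30 above, 14 of them striatal. Leaving out each of the 6 in turn gave 84 to 106 genes above, 0 to 2 below and 24 or 25 striatal genes above. Fewer libraries, in these cases and in males alone, can only add genes to these counts.

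For genes called by limma, leaving out the 6 gave 73 for fluoxetine in WT and 2 for fluoxetine in HT, against 26 and 8, and 1 for genotype under fluoxetine, against 2. It also gave 1 striatal gene for lithium in HT, against 0. Leaving out the 11 gave 3 each for fluoxetine in WT, fluoxetine in HT and genotype under lithium, 187 for lithium in WT, 1 for genotype under fluoxetine and 2 striatal genes for lithium in HT, Gpr155 and Ppp1r1b. Ppp1r1b had a log2 change of 0.32 both without the 6 (adjusted p = 0.10) and without the 11 (adjusted p = 0.017), on the same HT libraries, and of 0.08 with all 56 (adjusted p = 0.88). Libraries left out by Drd2 are left out by a gene that Ppp1r1b follows. With only the groups compared there were 9 and 19 for fluoxetine in WT and HT, 1 for genotype under fluoxetine and 16 under lithium. DESeq2 gave 127 and 13 for fluoxetine in WT and HT, and 31 and 12 for genotype under vehicle and lithium. The cause of these shifts was not tested. DESeq2 put Drd2 at 1.39 for genotype under vehicle and -1.08 for lithium in HT, against 0.32 and -0.18 with limma. For genotype under vehicle DESeq2 gave Drd2 no adjusted p. Of the 1016 calls for lithium in WT, 682 were higher, against 517 of 888 with TMM, 459 of 813 with voom and 460 of 818 with edgeR.

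Leaving out each of the 56 libraries in turn gave 0 (without WT vehicle male 1) to 71 (without WT fluoxetine male 1) calls for fluoxetine in WT and 4 (without HT fluoxetine female 2) to 13 (without WT fluoxetine male 5) for fluoxetine in HT. In 36 of the 56 cases the count for fluoxetine in WT moved by over 1.5 times. It gave 571 (without WT vehicle male 1) to 1226 for lithium in WT and 985 (without HT lithium male 3) to 1815 for lithium in HT, both upper values without WT fluoxetine male 5. For genotype it gave 1 to 35 (without HT vehicle female 1) under vehicle, 1 to 2 under fluoxetine and 2 (without HT lithium female 4) to 10 (without HT lithium female 2) under lithium. No striatal gene was called in any of these 56 fits for any of the 7 comparisons.

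The replicate numbers of the titles, which differ from those of the library names in 4 libraries, did not pair libraries: deviations of same-numbered libraries correlated at -0.237 to 0.429 (292 pairs, median -0.0016), and 11 of 56 libraries correlated best with one of their own number. With the number as a replicate block, 49 genes were called for fluoxetine in WT. The counts for the other 6 comparisons stayed within 1.5 times, and no striatal gene was called.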
